A study of Rattus norvegicus with 30 samples.

Results

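The Il1rapl1 segment is the stretch of rat chromosome X from 56.35 to 56.61 Mb on the rn5 genome build, a length of 260000 bp. It was drawn around a CpG at 56.449 Mb and a CpG at 56.511 Mb. Both were chosen by their methylation ratios in these same rats, which had been seen to go with impairment. The comparison of impaired with unimpaired rats is therefore given here as a description. Counts of sites passing a p threshold in it belong to that description and are no test of the segment. Every cytosine with a methylation value inside these bounds was taken, which gave 137 distinct positions of the 1263807 in the whole series and of the 75451 on chromosome X. Of these, 12 were CpG positions (10 CpGs, of which 2 had a value on each strand), 27 were CHG and 98 were CHH positions, where H stands for any base other than G.

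The medial prefrontal cortex (prelimbic and infralimbic areas) of 30 male Fischer 344 rats was examined by whole genome bisulfite sequencing, with 1 library per rat. There were 10 young rats of 5 to 6 months and 20 aged rats of 17 to 22 months. The aged rats had been divided by their score on an operant set shifting task, a test of cognitive flexibility, into 9 impaired animals (aged impaired, AI) and 11 unimpaired animals (aged unimpaired, AU). All rats, young ones included, had been food restricted and trained for the task, and no group was given a drug or carried a transgene.

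Il1rapl1 encodes a membrane protein of the interleukin 1 receptor family that sits in the postsynaptic membrane, binds partners across the synaptic cleft and helps to organise excitatory synapses. The human gene lies on the X chromosome, and its loss can cause intellectual disability. It is a very long gene, most of it intron, and the cells of a male carry a lone X, so that a ratio between the extremes at an X-linked CpG cannot come from an active and an inactive copy in the same cell. Methylation of cytosine in the CpG context is common over gene bodies in brain, and neurons also carry methylation in the CHG and CHH contexts, collectively called non-CG methylation. The tissue holds neurons and glia together, and a different ratio within a cell type and a different mix of cell types cannot be told apart.

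The measurement was the methylation ratio, the share of reads at a cytosine that read as methylated in a rat, from 0 (no read) to 1 (every read). A ratio was present only where at least 5 reads covered the site. The values come in 2 sets of calls, the age calls (aged and young rats) and the impairment calls (AI and AU rats), and a position entered a set only if at least 3 rats in each group had a ratio. In the age calls the segment held 7 CpG, 20 CHG and 80 CHH positions, and in the impairment calls 11, 25 and 92. How many reads lie behind each ratio is unknown beyond that minimum, so the number of rats with a ratio stands in for depth. Over the whole genome the rats had a ratio at between 22521 and 70063 CpGs, and the coverage went with the series of the rat identifiers. These identifiers fall into 3 number series, called A, B and C here in ascending order, which the labels do not explain and which were treated as a possible batch. The AI rats numbered 5 in series A and 4 in series B, the AU rats 6, 4 and 1 in series A, B and C, and the young rats 3, 3 and 4.

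The 137 positions lay in 5 short stretches, with no other deposited cytosine between them. The first, chrX:56377363-56377650, held 4 CpG, 6 CHG and 18 CHH positions, with a ratio in a median of 11 of 30 rats. The following stretch, chrX:56449111-56449191, held 4 CpG, 5 CHG and 22 CHH positions, of which 30 were in the impairment calls, with a ratio in a median of 9 of 20 rats, and 17 in the age calls, with a median of 12 of 30. A stretch of 25 bp, chrX:56451371-56451395, held no CpG, with 2 CHG and 3 CHH positions. The next in order, chrX:56510957-56511152, stood apart in coverage: it held 1 CpG, which lies 40 bp after its first position, 10 CHG and 39 CHH positions, and 35 of its 50 positions had a ratio in all 30 rats. The last, chrX:56517004-56517087, held 3 CpG, 4 CHG and 16 CHH positions, all 23 in the impairment calls, with a median of 9 of 20 rats, and 7 in the age calls, with a median of 11 of 30. The CpG at 56.449 Mb is annotated to an intron of Il1rapl1, as is a CpG at 57.117 Mb outside the segment, so that the stretches between them lie inside the gene. Whether they are exonic or intronic was not analysed here, nor which gene, if any, holds the first stretch, which ends 71.5 kb short of that CpG.

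Methylation at the CpG at 56.511 Mb stood higher in AI rats than in AU rats or young rats. The ratio in the 9 AI rats ran from 0.40 to 0.593 with a median of 0.50 and a mean of 0.482 ± 0.0634 (SD). The 11 AU rats ran from 0.167 to 0.417 with a median of 0.333 and a mean of 0.316 ± 0.0790 (SD). The 10 young rats ran from 0.10 to 0.50 with a median of 0.30 and a mean of 0.325 ± 0.117 (SD). The AI and AU rats overlapped little: 8 of 9 AI rats lay above every AU rat, and 9 of 11 AU rats lay below every AI rat. The young rats spread over both ranges, with 3 of 10 inside the range of the AI rats and 6 of 10 inside the range of the AU rats. The AI mean exceeded the AU mean by 0.166 and the young mean by 0.157, and the AU and young means differed by only -0.00853. The AI against AU contrast chose this site, so these values are a description. Its place in the count of CpGs passing a threshold for impairment, given below, is no test of it.

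**Figure D1:**
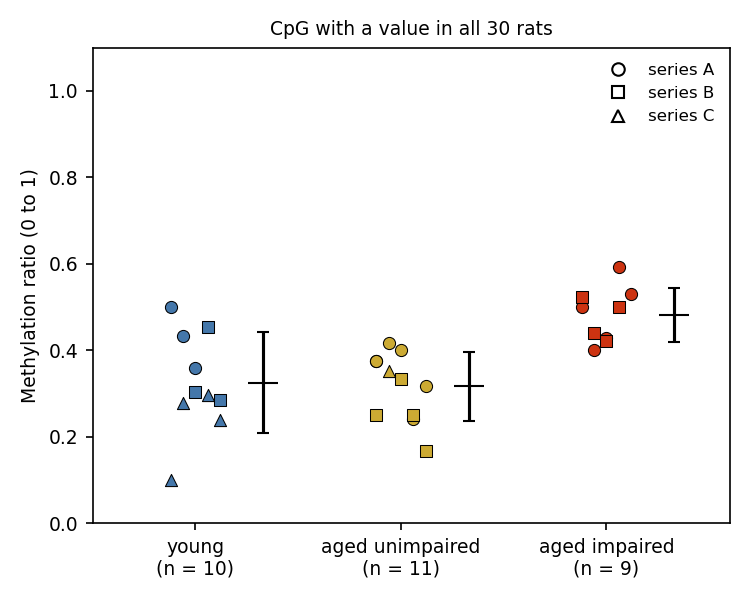
Methylation ratio (vertical axis, 0 to 1) at the CpG with a value in all 30 rats, at 56.511 Mb, by group on the horizontal axis. Each symbol is a rat, its shape the number series, and the bar beside each group is the mean with 1 SD. The AI rats sit between 0.40 and 0.593, and 4 young rats of series C sit low, with a mean of 0.228.

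The order of the 3 group means at this CpG was the same in series A and in series B. The series A mean was 0.491 in 5 AI rats, 0.354 in 6 AU rats and 0.431 in 3 young rats. In series B it was 0.471 in 4 AI rats, 0.250 in 4 AU rats and 0.348 in 3 young rats. In both series the young mean lay between the AI and AU means, not level with the AU mean as over all rats. Series C had no AI rat, and its 4 young rats had a mean of 0.228 beside 0.353 in the lone AU rat. The closeness of the young and AU means over all rats therefore went with the 4 young rats of series C. Over all groups the means were 0.419 in series A, 0.357 in series B and 0.253 in series C, but the series hold the groups in different shares, and the lone AU rat of series C stood level with the AU mean of series A. The part of the series in the group differences beyond these values was not tested.

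Age was not used to choose the segment and could be tested. At 56.511 Mb the 20 aged rats had a mean ratio of 0.391 ± 0.110 (SD) and exceeded the young rats by 0.0660, a difference that did not pass the threshold (2-sided permutation test, p = 0.1408). Within series A the aged minus young difference was -0.0142 (p = 0.8297, exact permutation test), and series B gave 0.0124 (p = 0.903, exact permutation test). Without series C it was 0.00348 (permutation test, p = 0.9452). The aged mean lay between the AI mean and the AU mean.

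The level at 56.511 Mb was low for the chromosome. Its mean over all 30 rats was 0.369, and 7.78% of the 5156 CpGs of chromosome X and 10.8% of the 85484 CpGs of the age calls had a lower mean. The median of the site means was 0.800 on chromosome X. It was also among the better covered sites, since 7.82% of the CpGs of chromosome X had a ratio in all rats. Its spread over all rats, an SD of 0.115, was close to the median SD of 0.116 among 466 CpGs with a ratio in every rat and a mean between 0.3 and 0.5.

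The other 11 CpG positions of the segment differed in level by stretch. In the last stretch, 6007 bp and more above 56.511 Mb, the 3 CpGs had means of 0.847 (4 AI rats) and 0.895 (5 AU rats) at 56517004, 0.922 and 0.903 at 56517015, and 0.903 ± 0.115 and 0.726 ± 0.239 (SD) at 56517025. The young rats had no value there. At 56517025 the AI rats ran from 0.778 to 1 and the AU rats from 0.40 to 1, so that the AU range held the AI range.

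The stretch around the CpG at 56.449 Mb held a nearly fully methylated CpG and a partly methylated CpG within 41 bp. At the CpG at 56.449 Mb itself, the cytosine just before position 56449114, 3 AI rats had ratios of 1, 1 and 0.800 and 3 AU rats had ratios of 1, 0.857 and 0.800. The ranges of the 2 groups coincided, with means of 0.933 ± 0.115 and 0.886 ± 0.103 (SD). The young rats had no value at this position. Position 56449114 is the cytosine on the other strand of the same CpG and had the highest mean of the 7 CpGs of the segment in the age calls. There all 3 young rats stood at 1 and 8 aged rats had a mean of 0.982, which is -0.0179 from the young mean (p = 0.5636, exact permutation test). Of the aged rats 6 of 8 also stood at 1, so no labelling of these ratios could have passed the threshold.

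Just 40 bp on, the CpG at 56449153 and 56449154 was about halfway methylated. On the first strand, at 56449153, 3 AI rats had ratios of 0.833, 0.750 and 0.600 and 3 AU rats had ratios of 0.714, 0.556 and 0.40. The AI mean was 0.728 ± 0.118 and the AU mean 0.557 ± 0.157 (SD), with ranges that overlapped. On the other strand, at 56449154, the means were 0.489 in 3 AI rats and 0.499 in 6 AU rats, so the higher AI mean was seen on 1 strand only. The 3 young rats had a mean of 0.583 ± 0.250 (SD) at 56449154, and the 9 aged rats differed from it by -0.0875 (p = 0.4091, exact permutation test).

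The strands of this CpG could be set against each other in the 5 aged rats with both values, all of series A. The mean ratio was 0.621 on the first strand and 0.473 on the other, a difference within rats of 0.148 ± 0.143 (SD), with the first strand higher in 4 of 5 rats. The exact sign-flip permutation test gave p = 0.125, where the smallest p that 5 rats allow is 0.0625. A strand difference of this size was not rare: of 8527 such pairs with at least 5 rats in the impairment calls, 16.7% had a mean difference as large, and the median was 0.0607.

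**Figure D2:**
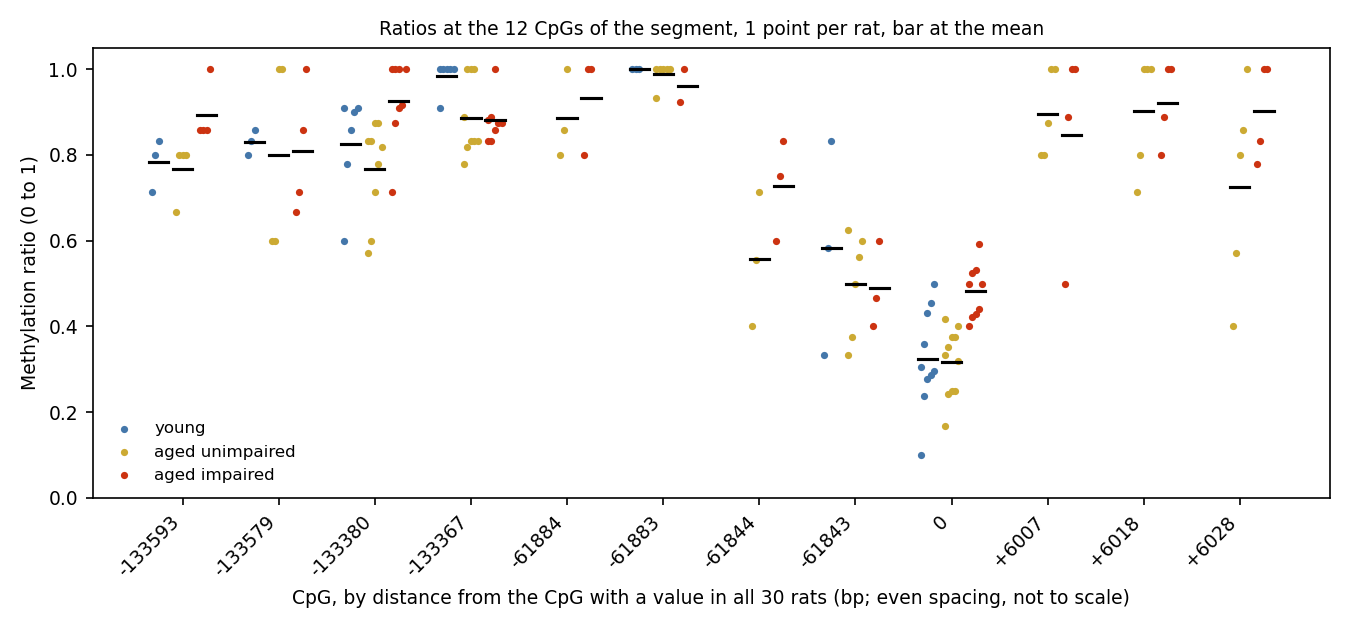
Methylation ratio (vertical axis, 0 to 1) of every rat with a value at the 12 CpG positions of the segment, ordered along the horizontal axis by distance in bp from the CpG at 56.511 Mb and evenly spaced. Points are rats coloured by group and bars are group means. The lowest ratios are at distance 0 and at the right one of the 2 CpGs with both strands, at 56449153 and 56449154. Positions without young points are in the impairment calls only.

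In the first stretch, 4 CpGs lay within 226 bp of each other. At the CpG at 56377630 the aged rats had a lower mean than the young rats, a difference that passed the threshold before but not after adjustment over all CpGs. The 17 aged rats ran from 0.778 to 1 with a median of 0.875 and a mean of 0.884 ± 0.0721 (SD). The 6 young rats ran from 0.909 to 1 with a median of 1 and a mean of 0.985 ± 0.0371 (SD). Of the young rats 5 of 6 stood at 1, against 4 of 17 aged rats, and 13 of 17 aged rats had less methylation than any young rat. The difference was -0.101 (exact permutation test, 2-sided, p = 0.003982). It was alike in the 2 aged groups, with means of 0.881 in 8 AI rats and 0.887 in 9 AU rats.

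This CpG was the only 1 of the 7 in the age calls with an unadjusted p under 0.05 in the test across all sites, where 6.13% of all CpGs passed in either direction and 3.72% passed as lower in aged rats. At this background a count of 1 in 7 is not a result about the segment. After adjustment over all CpGs its p was 0.181, and with limma it was 0.473, so that 0 of the 7 CpGs passed an adjusted threshold that 0.0690% of all CpGs passed. Within series A the difference was -0.0954 in 11 aged and 3 young rats (exact permutation test, p = 0.04396). It was -0.1175 in series B, with 5 aged rats and 1 young rat, and 0 in series C, where 1 aged and 2 young rats all stood at 1. Without series A the difference was -0.0979 and did not pass (exact permutation test, p = 0.1667). The young rats left all stood at 1, as did some aged rats. No labelling of these ratios with a higher young mean could therefore have passed, and nothing is read from this p. Over all rats the difference of medians, -0.125, did not pass (p = 0.1036 by permutation).

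The CpG at 56377617, 13 bp away and so within reach of the same reads, ordered the groups in another way. Its ratio ran from 0.714 to 1 in 8 AI rats, with a median of 0.958 and a mean of 0.927 ± 0.0998 (SD). In 9 AU rats it ran from 0.571 to 0.875, with a median of 0.818 and a mean of 0.767 ± 0.114 (SD). In 6 young rats it ran from 0.600 to 0.909, with a median of 0.879 and a mean of 0.826 ± 0.121 (SD). The AI rats held 4 ratios of 1 and the AU and young rats none, the ranges of AI and AU rats overlapped, and the young mean lay between theirs. The AI minus AU difference was 0.160 over all rats, 0.144 in series A and 0.198 in series B. Aged and young rats differed by 0.0164 (exact permutation test, p = 0.7928).

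**Figure D3:**
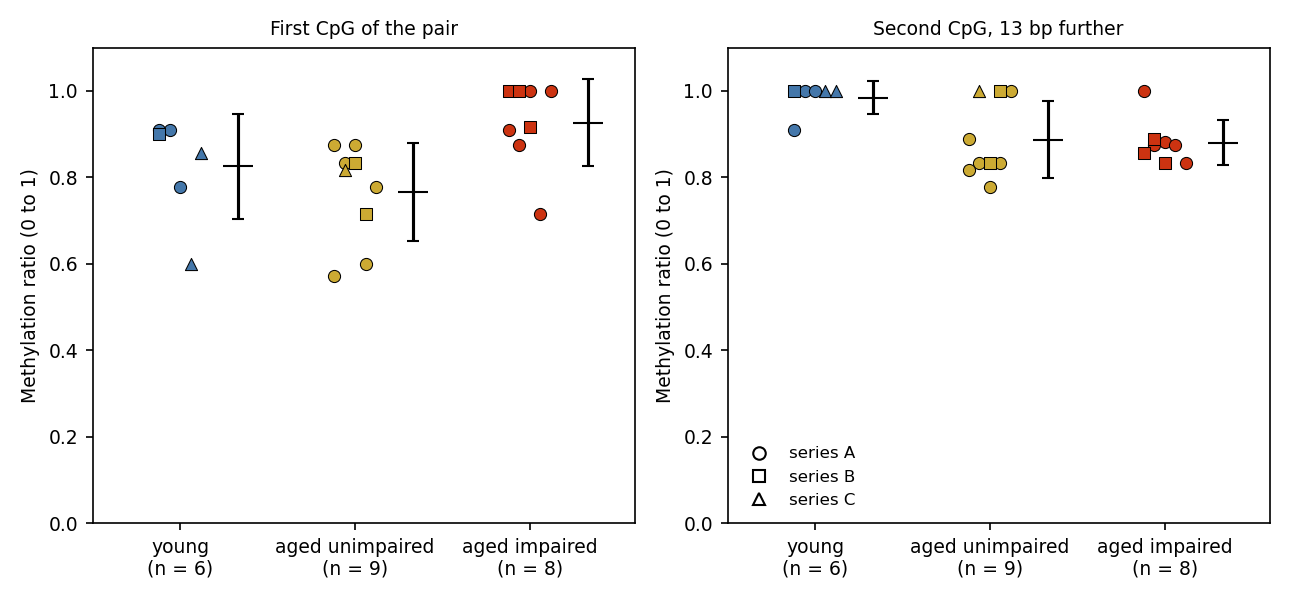
Methylation ratio (vertical axis, 0 to 1) at 2 neighbouring CpGs of the first stretch by group, at 56377617 on the left and 56377630 on the right. Symbols are rats, shapes number series, and bars the mean with 1 SD. On the left 4 AI rats stand at 1, and on the right 5 of 6 young rats do.

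The remaining CpGs of the stretch were covered in fewer rats. At 56377404 the 4 AI rats had ratios from 0.857 to 1 and the 4 AU rats from 0.667 to 0.800, with means of 0.893 ± 0.0714 and 0.767 ± 0.0667 (SD). The AI and AU ranges did not overlap, as at 1.19% of all CpGs and at 1.98% of the CpGs with 4 rats in each group. The 3 young rats had a mean of 0.783 ± 0.0614 (SD), and aged minus young was 0.0472 (exact permutation test, p = 0.4364). At 56377418 the means were 0.810 in AI, 0.800 in AU and 0.830 in young rats, and aged minus young was -0.0254 (exact permutation test, p = 0.7939).

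As a description of the values that drew the segment, 3 of the 11 CpG positions in the impairment calls had an unadjusted p under 0.05 in the test across all sites, where 4.10% of all CpGs passed in either direction and 2.08% passed as higher in AI rats. They were 56377404, 56377617 and 56.511 Mb, all higher in AI rats, and 0 passed after adjustment, against 0.00865% of all CpGs. Since this contrast chose the segment, the count is no test of it, and nothing is read from it against these shares. Without series B the count was 1, at 56.511 Mb. Where CpGs sit on the same reads their ratios come from the same molecules, and they are not independent of each other.

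A mean per rat over the segment was formed for rats with at least 3 CpG ratios, after each ratio had been centred on the mean of its site. Over the 11 CpG positions of the impairment calls the plain mean was 0.789 ± 0.0696 (SD) in 8 AI rats and 0.699 ± 0.0748 (SD) in 10 AU rats. The centred difference, AI minus AU, was 0.0840. Without the CpGs at 56.449 Mb and 56.511 Mb it was 0.0588, in 6 AI and 9 AU rats. Without series B it was 0.0579, and with each rat left out it ran from 0.0712 to 0.0947. These are descriptions, and their sign is no support for a difference, since the contrast was used to draw the segment.

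By age the segment as a whole moved little. The plain CpG mean was 0.734 ± 0.0602 (SD) in 17 aged and 0.702 ± 0.0878 (SD) in 8 young rats. The centred difference was 0.0114, smaller than the SD between rats in either group, and its sign turned with the rats and sites kept. It was -0.00579 without series C, in 16 aged and 5 young rats. Without the CpG at 56.511 Mb it was -0.0488, but only 12 aged and 3 young rats then had enough CpG ratios. Nor did the segment stand apart from the rest of the chromosome in level. The young rats had a mean of 0.728 over the other CpGs of chromosome X, so that the segment differed by -0.0263 ± 0.0906 (SD) and was lower in 4 of 8 rats. In the aged rats the segment differed from the rest of the chromosome, at 0.730, by 0.00373 ± 0.0614 (SD) and was lower in 8 of 17. The bounds were not set by a level. Just inside them, the outermost CpGs of the age calls were 56377404 and the CpG at 56.511 Mb, described above. Just outside, the CpG at 55954031 averaged 0.872 over 8 aged rats and 0.811 over 4 young rats. The CpG at 56673062 averaged 0.766 over 11 aged rats and 0.770 over 3 young rats.

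Non-CG methylation in the segment was close to 0 at most positions, as over all sites, and was highest near the CpG at 56.511 Mb. Over the age calls the median of the site means was 0.0111 at the 20 CHG and 0.00710 at the 80 CHH positions. No read was methylated in any rat at 5 CHG and 23 CHH positions. These were 25% and 28.75% of the positions, against 29.6% of all CHG and 38.14% of all CHH sites. A mean over 0.1 was found at 1 of 20 CHG and 2 of 80 CHH positions, against 3.47% and 2.71% of all such sites. All 3 lay in the stretch around 56.511 Mb, which held 49 of the non-CG positions of the age calls. At these shares the count is not a result about the segment.

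The CHG site at 56510957, 40 bp from this CpG, had the highest mean of the non-CG positions over all rats of the age calls, while in the impairment calls the CHH site beside it had a mean of 0.214 against 0.212. Its mean was 0.210 over 29 rats, and 1.31% of all CHG sites had a mean over 0.2. The mean was 0.239 ± 0.156 (SD, n = 8) in AI rats, 0.192 ± 0.0926 (SD, n = 11) in AU rats and 0.205 ± 0.0833 (SD, n = 10) in young rats, and the ranges of all 3 groups overlapped. Aged and young rats differed by 0.00723 (permutation test, p = 0.8718).

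The next cytosine, the CHH site at 56510958, had a mean of 0.189 over 29 rats. The AI rats ran from 0.133 to 0.30 with a mean of 0.219 ± 0.0578 (SD, n = 8), and the AU rats from 0 to 0.50 with a mean of 0.211 ± 0.139 (SD, n = 11). The young rats ran from 0 to 0.333 with a mean of 0.142 ± 0.114 (SD, n = 10). The AU and young rats each spanned the AI range, and the aged minus young difference of 0.0728 did not pass the threshold (permutation test, p = 0.1099). The mean was 0.213 in series A, 0.197 in series B and 0.109 in the 5 rats of series C, of which 4 were young, so that series and group make-up cannot be told apart in this order.

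Most other positions of the stretch had a mean ratio near 0, with 2 CHH sites higher. The CHH site at 56511152 had a mean of 0.106 in 13 rats and the CHH site at 56511068 a mean of 0.0772 in all 30. The CHG sites at 56511109 and 56511123 had means of 0.0293 and 0.0326. The median over the 49 non-CG positions was 0.0113. Averaged over the non-CG positions other than 56510957 and 56510958, the ratio was 0.0135 ± 0.00617 in AI, 0.0154 ± 0.00525 in AU and 0.0145 ± 0.00571 in young rats (SD), so that the AI mean was the lowest of the 3 by less than 1 SD.

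**Figure D4:**
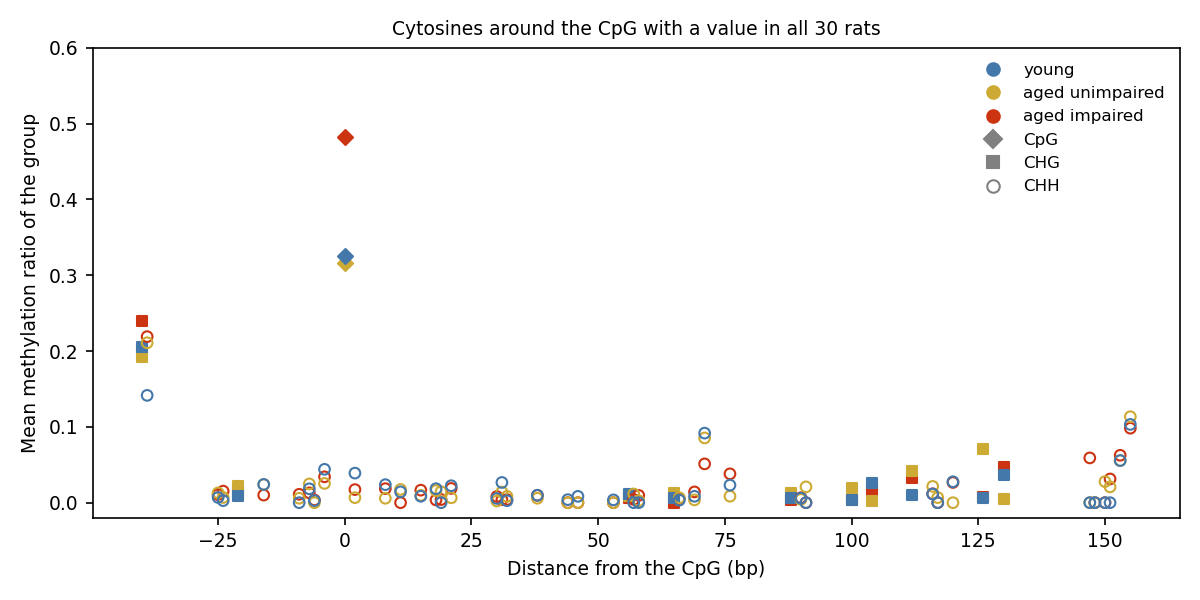
Mean methylation ratio of each group (vertical axis) at the cytosines of the stretch around the CpG at 56.511 Mb, by distance from it in bp (horizontal axis). Diamonds are the CpG, squares CHG and open circles CHH sites. The groups part at the CpG, at 0.482 in AI against 0.316 in AU and 0.325 in young rats, and the pair of non-CG sites 40 and 39 bp before it stands above the other non-CG sites.

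Of the non-CG sites, 1 CHG and 2 CHH sites had a mean over 0.1 in at least 1 age group and entered the test across all sites, and 0 passed at an unadjusted p under 0.05, where 8.98% of CHG and 8.81% of CHH sites passed. For impairment 1 CHG and 4 CHH sites entered and 0 passed, where 6.23% and 6.10% of all sites passed. Over the segment, the centred mean per rat differed between aged and young rats by 0.00656 for CHG and by -6.33e-05 for CHH. Between AI and AU rats the differences were -0.00173 and -0.000801. Each was smaller than the SD between rats.

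From rat to rat, none of 6 relations around the CpG at 56.511 Mb passed a permutation test over all rats. The correlation of the CpG over 29 rats was r = 0.102 (rho = 0.0719) with the CHG site at 56510957, with permutation p = 0.5994 and 0.7111. With the CHH site at 56510958 it was r = 0.0614 (rho = 0.246), with permutation p = 0.7485 and 0.1942. These 2 non-CG sites correlated with each other at r = -0.226 (rho = -0.116), with permutation p = 0.239 and 0.5489.

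Over 30 rats the CpG correlated with the mean of the other non-CG positions of the stretch at r = -0.183 (rho = -0.000445), with permutation p = 0.333 and 0.9983. With the number of CpGs that had a ratio in the rat it was r = 0.250 (rho = 0.196), with permutation p = 0.1838 and 0.2983. With the mean CpG ratio of the rat it was r = -0.235 (rho = -0.180), with permutation p = 0.2138 and 0.3404. The adjusted p over the 12 tests ran from 0.5835 to 0.9983. These values pool groups whose means differ at the CpG.

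Within the AI, AU and young rats, in that order, r was -0.405, 0.503 and -0.112 with the CHG site and 0.255, -0.320 and 0.133 with the CHH site. With the number of CpGs that had a ratio it was -0.464, 0.468 and 0.453. With the other non-CG positions it was -0.381, -0.197 and 0.0288, and with the mean CpG ratio -0.475, -0.0312 and -0.194. Between the CHG and CHH sites it was -0.147, -0.648 and 0.106. These values within groups were not tested. Without the 2 rats farthest out on the x axis, r of the CpG was -0.0689 with the CHG site, 0.257 with the CHH site, -0.102 with the other non-CG positions, 0.212 with the number of CpGs and -0.0330 with the mean CpG ratio, and that between the non-CG pair was -0.0969. Within series A the values in the same order were -0.123, -0.268, -0.181, -0.261, -0.0292 and -0.291, and within series B 0.640, 0.0836, -0.661, 0.0884, 0.123 and -0.352.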

How the data were processed

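Libraries were made by the authors from bisulfite converted DNA and sequenced in pairs. Per the labels and the study's methods, reads were trimmed with Trimmomatic and checked with FastQC, reads with unconverted bases were filtered, and the rest were aligned to rn5 with BSMAP and called with cscall. That filter may also lower true non-CG ratios. Versions are not given in the sources used here. The deposited values are ratios (fraction, 0 to 1) per rat and cytosine, not scaled between rats, and all 150 rat columns were assigned to a rat. Positions are as deposited. Values at positions in both sets of calls were identical.

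The members and lists were chosen with earlier results of these data known. Sites named are the CpGs at 56.449 Mb and 56.511 Mb, CpGs with an unadjusted p under 0.05, those with the lowest and highest mean, and the 3 most methylated CHG and CHH sites. The other CpGs were added to this rule after their values were seen. Welch's test, 2-sided, was fitted at every deposited site with at least 3 rats per group (non-CG where a group mean was over 0.1), with Benjamini-Hochberg adjustment over all. Single sites used permutation of rats, exact or with 100000 resamples. The p-values take the rat as the unit, and noise from few reads was not separated from the spread between rats. Tests were checked on simulated data. Stretches were split at gaps over 1000 bp. Alternatives were limma's moderated test with and without the number series, other minimums, bounds and filters, medians, and leaving out rats or series. Python 3.11.15, numpy 2.4.6, pandas 2.3.3, scipy 1.17.1, matplotlib 3.10.9, R 4.3.3 and limma 3.58.1 were used. Set shifting scores, RNA and reads were not analysed here.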

Additional observations from a re-analysis of the deposited data

Results flagged for a closer look

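A rat stood far from the rest of its group in 7 of 33 groups of 4 to 10 rats examined. Chance gives about 1 in 20 for continuous values, a rate that does not hold here, because ratios from few reads are tied and any rat off a shared value stands out. At 56377630 the lowest of 6 young rats stood at 0.909 with the others at 1, and the highest of 8 AI rats stood at 1. At 56449114 the lowest of 6 AU rats stood at 0.933 with the others at 1. At 56377404 the highest of 4 AI rats stood at 1 and the lowest of 4 AU rats at 0.667, each with its 3 group mates on a common value. At 56377617 the lowest of 8 AI rats stood at 0.714. In the mean over the non-CG positions around 56.511 Mb other than the methylated pair, the highest of 10 young rats stood at 0.0294.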

How the results depend on the processing

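The centred age difference of the segment in CpGs, 0.0114, changed sign in several settings. It was -0.00579 without series C and -0.0124 with CpGs of at least 5 rats per group. Settings that left only 3 young rats gave -0.0336 (at least 5 sites per rat) and -0.0488 (without the CpG at 56.511 Mb). Bounds 50 kb narrower, also with 3 young rats, gave -0.0296. It kept its sign elsewhere, at up to 0.0484 without series A. With each rat left out it ran from -0.00317 to 0.0236. The CHH difference was 0.00365 without series B, -0.00417 without series A and 0.000575 as a median over sites, and from -0.000924 to 0.00130 with each rat left out. The CHG difference ran from 0.00485 to 0.00834 with each rat left out and was 0.00150 as a median over sites. The AI minus AU difference ran from 0.0712 to 0.0947 with each rat left out. In the other settings it ran from 0.0579 without series B to 0.112 without series A. That contrast drew the segment, so these values are no support for a difference. With no filter on the mean, 1 non-CG site passed for age, the CHG site at 56511123, where 2.12% of all CHG sites passed. Its mean was 0.0705 in AU, 0.00781 in AI and 0.00680 in young rats, and aged against young did not pass by permutation (p = 0.1186, exact). Without series B, 1 CpG passed for impairment, again as a description. The aged level against the rest of chromosome X was -0.00667 without series B, and the median age difference at 56377617 was -0.00357. The age difference at 56.511 Mb ran from 0.0410 to 0.0855 with each rat left out and at 56377630 from -0.116 to -0.0941, past the threshold each time. Leaving out series at single CpGs was chosen after seeing the data. The cause of these shifts was not tested. The groups hold different rats and the labels give no pairing between them, so no paired analysis between groups was made. Ratios from as few as 5 reads and groups of 3 rats limit what can be detected.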

Other observations

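A further CpG of Il1rapl1, at 57.117 Mb in an intron and 667632 bp above 56.449 Mb, had a mean ratio of 0.664 ± 0.197 (SD) in 4 AI rats, 0.683 ± 0.212 (SD) in 4 AU rats and 0.824 ± 0.112 (SD) in 5 young rats. In Il1rapl2, the X-linked paralog of Il1rapl1, the CpG at 109.119 Mb had means of 0.853 in 5 AI and 0.728 in 3 AU rats, and all 4 young rats stood at 1. The CpG at 109.570 Mb of the same gene had means of 0.746 in 3 AI and 0.810 in 3 AU rats. These sites had been picked on the same rats, and their group values are descriptions.

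In the impairment calls, the nearest CpG with a ratio above the segment, at 56673062 and 63062 bp beyond its upper bound, had means of 0.723 in 5 AI and 0.801 in 6 AU rats. The nearest below it in the same calls, at 55864531, had means of 0.929 in 7 AI and 0.902 in 9 AU rats. The AI mean was thus the lower on the upper side and the higher on the lower side, and neither difference was tested.

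Among 192 windows of 260 kb on chromosome X, the pattern over rats most like that of the segment was in chrX:70460001-70720000 (r = 0.549 over 20 rats), chrX:91260001-91520000 (r = 0.548 over 23 rats) and chrX:90480001-90740000 (r = 0.497 over 25 rats). The median r was -0.0303 and the lowest -0.672. The windows share the libraries and their depth, and these values are descriptions.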
